A study of Mus musculus with 20 samples.

Results

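The 10 genes described here encode immediate early transcription factors and 1 survival factor: the Fos family (Fos, Fosb, Fosl1, Fosl2), the Jun family (Jun, Junb, Jund), the zinc finger factor Egr1, the apoptosis regulator Ier3 and the growth factor-induced regulator Myc. They were chosen by gene name from single-colour oligonucleotide arrays of mouse liver. All 10 were present, on 14 of the 41174 probes, among 27573 genes named on the array. 9 carried the current symbol in the array files, and Jund was found under its older name Jund1 through its RefSeq transcript. Each of the 10 passed the filter on dim probes, which kept 17552 genes. Fosl1 passed it only through knockout liver on Western diet, the group where it is high, so it had to differ there and counts are also given over the other 9.

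Livers came from male mice, 5 in each of 4 groups, on a mixed Sv129/C57Bl6J background. Wild-type mice and mice with both LXR alpha and LXR beta (genes Nr1h3 and Nr1h2) knocked out were fed a normal diet or a Western diet for 7 weeks. The LXR proteins are nuclear receptors for oxidised cholesterol. The stated age was 28 weeks, without saying whether at the start or the end of feeding. Each array held the RNA of a fragment of the large lobe of 1 liver, so a p-value measures the spread between mice. In such bulk samples a smaller number of cells of a type and less RNA per cell cannot be told apart.

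Fos and Jun proteins pair through leucine zippers to form AP-1, and Atf, Batf, Maf and Jdp2 proteins are alternative partners. Immediate early genes are switched on within minutes of a growth factor, cytokine or stress signal because the factors that induce them, SRF with its ETS partners and CREB, are already on their promoters. Their RNAs are short-lived, and phosphatases of the Dusp family and RNA-decay factors such as Zfp36 end the response. In liver the group is known for its induction after partial hepatectomy and during inflammation and injury.

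Expression is given as the log2 of the processed signal minus the log2 of the 75th percentile of that array, so a value of 0 is the 75th percentile and a difference of 1 is a doubling. Levels are compared within a probe and not between genes. The 75th percentile itself lay between 170.3 and 435.1 signal units. It was 339.7 to 435.1 in knockout liver on Western diet and at most 330.8 on every other array, so the brightest arrays were those of 1 group. The deleted genes matched the labels: Nr1h3 lay between 3.82 and 4.68 in wild-type and between -5.44 and -3.74 in knockout liver, and Nr1h2 between 0.6 and 1.01 and between -5.75 and -3.57.

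The 10 genes were highest, by group mean, in knockout liver on Western diet. For 5 of the 10, Fosl1 with its limit among them, every array of that group lay above every other measured array, against 11.6% of all genes. On that diet the 9 genes other than Fosl1 were each higher in knockout than in wild-type liver in the limma fit (adjusted p under 0.05 over all genes tested), and Fosl1, counted with that limit, made 10. The background in that comparison was large: 25% of all genes were called higher and 32.7% lower. The median log2 difference was 1.7 over the 9 genes and -0.16 over all genes tested. In 6 of the 9 the 2 groups did not overlap, against 19.2% of all genes. On normal diet 2 of the 10 were called higher, Fosl2 and Ier3, where 11.3% of all genes were called higher and 8.39% lower, and the median difference was 0.49 over the 9 genes against -0.064 over all genes.

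**Figure D1:**
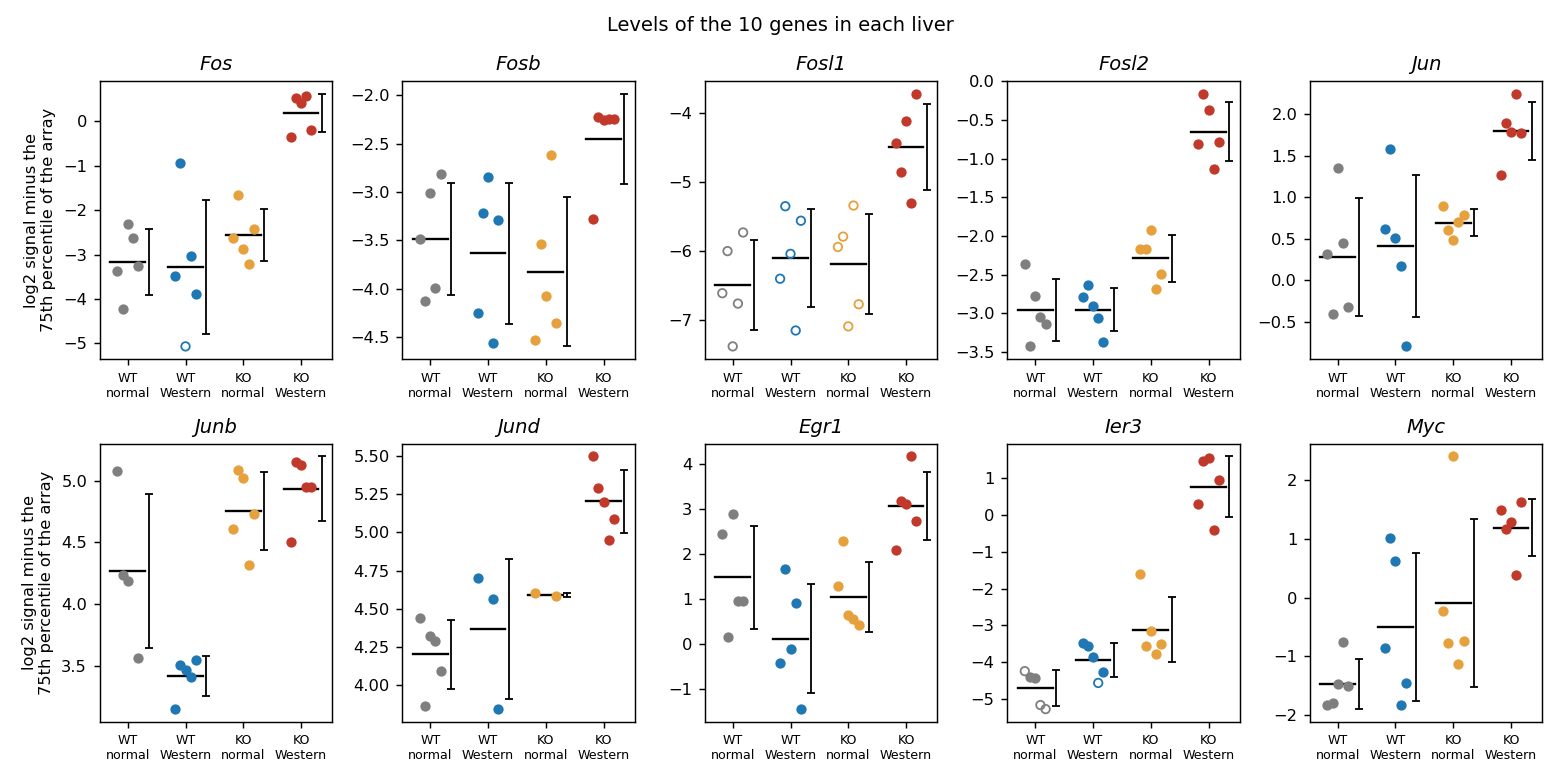
Log2 signal, set against each array's 75th percentile, for each of the 10 genes in the 4 groups (WT, wild-type; KO, LXR alpha/beta double knockout). Each point is 1 mouse, an open point is a signal not well above background, and the line and bar give the mean and SD. Knockout livers on Western diet have the highest group mean in all 10 panels, and Fosl1 is well above background in that group alone.

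To show the start regions of genes called in the same comparison, the 130 bases just before the annotated start were read for the 7 members whose promoters are in the RefSeq table used (GRCm38.p6). Fosl1, Egr1 and Myc were not in that table. The 5 that hold most of the motif matches are shown, with the matches in capitals, 5′ to 3′ on the strand of the gene. Fos is at chr12:85473760-85473889 on the plus strand, Fosb at chr7:19310046-19310175 on the minus strand, Fosl2 at chr5:32136342-32136471 on the plus strand, Jun at chr4:95052223-95052352 on the minus strand and Ier3 at chr17:35821583-35821712 on the plus strand.
Fos: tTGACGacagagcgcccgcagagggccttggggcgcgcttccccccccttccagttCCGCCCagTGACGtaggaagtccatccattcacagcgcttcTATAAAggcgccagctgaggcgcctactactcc
Fosb: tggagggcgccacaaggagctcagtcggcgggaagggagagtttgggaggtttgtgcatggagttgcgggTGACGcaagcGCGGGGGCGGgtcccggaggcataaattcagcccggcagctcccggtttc
Fosl2: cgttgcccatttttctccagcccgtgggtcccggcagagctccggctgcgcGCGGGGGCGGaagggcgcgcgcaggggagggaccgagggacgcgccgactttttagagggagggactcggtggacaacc
Jun: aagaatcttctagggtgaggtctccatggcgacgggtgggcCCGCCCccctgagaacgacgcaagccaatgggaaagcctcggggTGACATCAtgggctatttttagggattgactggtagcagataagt
Ier3: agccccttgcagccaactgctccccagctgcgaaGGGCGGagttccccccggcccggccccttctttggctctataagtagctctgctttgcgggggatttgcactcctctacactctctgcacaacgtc

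Both strands were searched for TGACG, the core of CREB and ATF sites, for TGACGTCA and TGANTCA, the full CRE and AP-1 sites, for TGACATCA, a variant of them, for GCGNGGGCG, an Egr site, for the GC box GGGCGG, for TATAAA, for CACGTG and for the CArG box of SRF. TGACG was found in Fos, at 129 and at 66 bases before the start, in Fosb at 60 and in Junb at 106. That is 3 of 7 members, against 12.2% of all 32851 promoters in the table over the same window. GCGNGGGCG was found in Fosb at 50 and in Fosl2 at 79 bases before the start, where it overlaps a GC box, against 3.51% of all promoters. TGACATCA was found in Jun at 45 bases before the start, against 2.19%, and TATAAA in Fos at 33, against 6.83%. GGGCGG was found in 5 of the 7, against 27.3%. None of the 7 windows held TGACGTCA (1.3% of all promoters), TGANTCA (3.7%), CACGTG (3.88%) or a CArG box (0.81%). These matches describe the letters of a short window and show no binding.

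Fos, the founding AP-1 subunit, was read by a probe at chr12:86366053-86366112 (mm8, the build of the array files), with 10 spots per array whose median SD was 0.1. Wild-type livers 1 to 5 on normal diet had values of -3.38, -4.23, -2.31, -2.62 and -3.26. Those on Western diet had -3.49, -0.94, -5.07, -3.04 and -3.89. Mouse 2 was the highest of that group and mouse 3 was not well above background. Knockout mice on normal diet had Fos at -2.62, -1.65, -2.87, -3.21 and -2.42. Knockout mice on Western diet had it at -0.36, 0.52, 0.41, 0.58 and -0.2, above every other array. On Western diet Fos was 11.1-fold higher in knockout liver (log2 difference 3.48 ± 0.55, SE; adjusted p = 2.84e-05). With normexp background correction, which adds an offset of 50 to each corrected signal, the log2 difference was 1.72 (adjusted p = 0.00125). On normal diet the difference was 0.61 ± 0.55 (95% interval -0.54 to 1.76), and the groups overlapped.

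Fosb, a Fos relative that is also serum-induced, lay between -4.13 and -2.81 in wild-type liver on normal diet and between -4.56 and -2.85 on Western diet. It lay between -4.53 and -2.62 in knockout liver on normal diet. On Western diet the knockout mice stood at -3.28, -2.22, -2.26, -2.24 and -2.24, so 4 mice were nearly equal and mouse 1 was low. The difference on Western diet was 1.19 ± 0.39 (adjusted p = 0.014), and mouse 1 overlapped wild-type liver. With normexp it was 0.02 (adjusted p = 0.975).

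Fosl1 encodes Fra-1, a Fos protein without the transactivation domain of Fos. Its probe was not well above background on any of the 15 arrays of the other groups, where the values ran from -7.38 to -5.34. Knockout mice on Western diet had it well above background, at -4.43, -4.86, -4.12, -5.31 and -3.72. The lowest of these was next to the highest of the other arrays. With dim signals raised to a floor, Fosl1 was 1.6-fold higher in knockout than in wild-type liver on Western diet. No p is given, because the probe entered the test only through the bright group. That figure sets the mean of the bright group against the lowest signal well above background on each array of the dim group, or the probe's own signal where that was higher. It is no strict lower limit, because the Ier3 probe was not well above background at -4.56 in wild-type mouse 4 on Western diet. The measured difference of 1.61 ± 0.41 became -0.27 with normexp.

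Fosl2, which encodes Fra-2, was called on both diets. Wild-type mice fed normal diet had it at -2.37, -3.43, -2.78, -3.05 and -3.14, and those fed Western diet at -2.79, -2.64, -2.91, -3.06 and -3.37. In knockout mice it stood at -2.17, -2.17, -1.92, -2.69 and -2.49 on normal diet. On Western diet these rose to -0.81, -0.16, -0.37, -1.13 and -0.78, above every other array. The genotype difference was 0.66 ± 0.21 on normal diet (adjusted p = 0.0343) with overlapping groups, and 2.3 ± 0.21 on Western diet (adjusted p = 5.36e-08), a 4.93-fold difference. The smaller call was lost without any 1 of wild-type mice 2, 4 or 5 or knockout mice 1, 2 or 3 (differences 0.55 to 0.64, adjusted p 0.0667 to 0.0928). In the value table deposited by the authors it was 0.25 (adjusted p = 0.297). With normexp the Western diet difference was 0.86 (adjusted p = 0.0589). A second, dimmer Fosl2 probe, well above background on 1 to 5 arrays of a group, differed by 0.17 ± 0.4 on Western diet (adjusted p = 0.729), so the 2 probes disagreed.

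Jun, the AP-1 subunit that can also pair with itself, was read at chr4:94541191-94541250 (mm8) with 10 spots per array of median SD 0.05. Wild-type livers fed normal diet gave 0.32, -0.41, 1.35, 0.45 and -0.33. Western diet gave 0.62, 1.58, 0.51, 0.17 and -0.8, with mouse 2 highest. Knockout liver on normal diet was tighter, at 0.9, 0.6, 0.48, 0.7 and 0.79. On Western diet knockout mice reached 1.27, 1.89, 1.79, 2.25 and 1.78. The Western diet genotype difference was 1.38 ± 0.35 (2.6-fold, adjusted p = 0.00272), with wild-type mouse 2 inside the knockout range. On normal diet the difference was 0.42 ± 0.35 (95% interval -0.32 to 1.16).

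Junb, which dampens Jun in many promoters and is prominent in inflammatory responses, was read by a pair of probes. On normal diet 4 wild-type mice had values of 5.08, 4.24, 4.19 and 3.56, and mouse 4 had none because its spot was marked as an outlier. Wild-type mice on Western diet stood at 3.15, 3.51, 3.47, 3.41 and 3.55, all below those on normal diet (4% of all genes separated in that way). Knockout mice fed normal diet had Junb at 4.61, 5.09, 5.02, 4.32 and 4.73. Knockout mice fed Western diet had it at 4.5, 5.15, 5.13, 4.95 and 4.95, in the same range. The genotype difference on Western diet was 1.52 ± 0.22 (2.87-fold, adjusted p = 1.48e-05), with no overlap. A second Junb probe gave 2.04 ± 0.35 (adjusted p = 6.36e-05). On normal diet the difference was 0.49 ± 0.23 (adjusted p = 0.16), and it was 0.76 (adjusted p = 0.0158) without wild-type mouse 1.

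Jund, the most constantly expressed Jun gene, had the smallest genotype difference of the 10 on Western diet. Its spot was an outlier on 5 arrays, so the fit used 5, 3, 2 and 5 mice of the wild-type groups on normal and Western diet and the knockout groups on normal and Western diet. The values were 4.44, 3.86, 4.32, 4.29 and 4.09, then 4.7, 4.56 and 3.84, then 4.6 and 4.58, then 5.5, 5.29, 5.2, 4.95 and 5.09, in that order of groups. Every knockout liver on Western diet was above every other measured liver. The genotype difference on Western diet was 0.84 ± 0.2 (1.79-fold, adjusted p = 0.00239), and it was 0.65 (adjusted p = 0.0649) when arrays were scaled to their median.

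Egr1, an immediate early zinc finger factor with its own set of growth and matrix targets, varied widely between wild-type mice. On normal diet these stood at 2.45, 0.16, 2.9, 0.95 and 0.97, and on Western diet at -0.42, 1.67, -0.1, 0.92 and -1.44. Knockout mice had Egr1 at 1.3, 2.3, 0.64, 0.55 and 0.43 on normal diet. On Western diet the knockout values were 2.1, 3.19, 3.11, 4.17 and 2.73, all above wild-type liver on the same diet but not all above wild-type liver on normal diet. The genotype difference was 2.93 ± 0.59 on Western diet (7.63-fold, adjusted p = 0.000346) and -0.44 ± 0.59 on normal diet (95% interval -1.68 to 0.8).

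Ier3, an early response gene that restrains apoptosis, had the largest difference of the 10 on Western diet. Its probe lies at chr17:35430636-35430695 (mm8). It was well above background on 2 of 5 arrays of wild-type liver on normal diet and on 4 of 5 on Western diet. On normal diet the wild-type values were -4.24, -4.39, -4.42, -5.16 and -5.27. On Western diet they were -3.48, -3.57, -3.86, -4.56 and -4.26. Knockout mice on normal diet had Ier3 at -1.6, -3.56, -3.14, -3.77 and -3.5, with mouse 1 highest and no overlap with wild-type liver. On Western diet it reached 0.31, 1.46, 1.54, -0.41 and 0.95, above every other array. The genotype difference was 1.58 ± 0.41 on normal diet (2.99-fold, adjusted p = 0.0108) and 4.72 ± 0.41 on Western diet (26.3-fold, adjusted p = 2.66e-08). With normexp these were 0.39 (adjusted p = 0.902) and 2.11, the second still called, and the authors' deposited table gave 0.43 on normal diet (adjusted p = 0.3).

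Myc, the basic helix-loop-helix factor that drives ribosome and nucleotide production, was most scattered in wild-type liver on Western diet (SD 1.26, n = 5) and in knockout liver on normal diet (SD 1.43), against SDs of 0.43 and 0.49 in the other groups. Its probe at chr15:61819627-61819687 (mm8) has 10 spots of median SD 0.07. Wild-type livers fed normal diet had -1.83, -1.8, -1.47, -0.76 and -1.51. Western diet gave -0.87, 1.01, 0.62, -1.83 and -1.46, with mice 2 and 3 above the normal diet range. Knockout liver on normal diet held the highest value of all, 2.41 in mouse 3, beside -0.23, -0.77, -1.13 and -0.74. On Western diet knockout mice stood at 1.49, 1.17, 1.29, 0.39 and 1.63, and wild-type mice 2 and 3 lay within that range. The genotype difference on Western diet was 1.7 ± 0.6 (3.25-fold, adjusted p = 0.0212). It was 1.37 (adjusted p = 0.0654) without wild-type mouse 4 and 1.46 (adjusted p = 0.0598) without wild-type mouse 5. The other 2 Myc probes gave 1.5 ± 0.59 (adjusted p = 0.0361) and 0.83 ± 0.57 (adjusted p = 0.219).

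**Figure D2:**
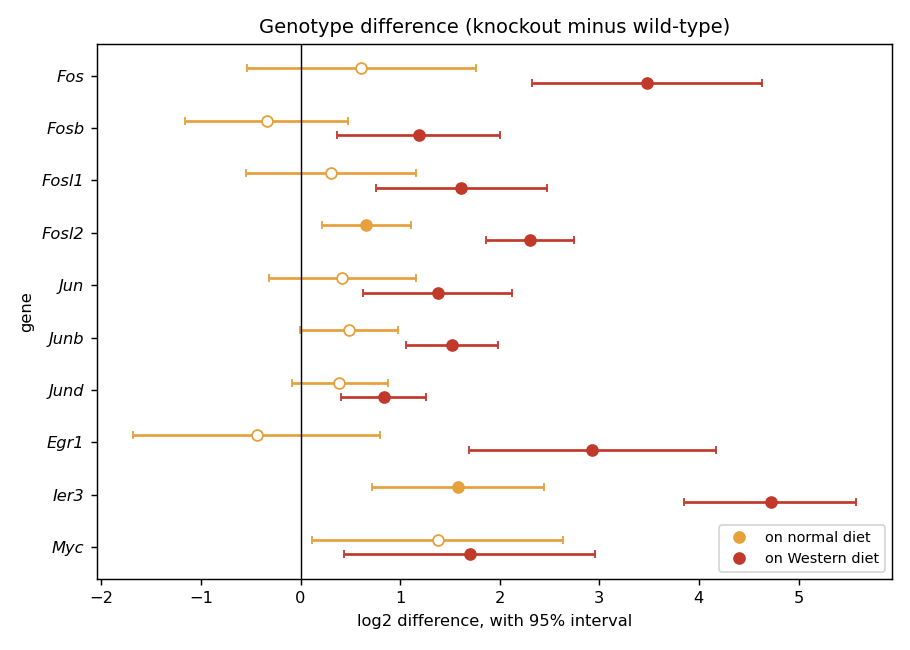
Log2 difference between knockout and wild-type liver for each gene on normal diet and on Western diet, with 95% intervals from the limma fit; a filled point has an adjusted p under 0.05. All 10 points are filled on Western diet, Fosl1 having passed the filter through that group alone, and Fosl2 and Ier3 are filled on normal diet.

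The effect of the diet was then taken within each genotype. These comparisons share their samples with the genotype comparisons, so their values are given side by side and are no separate evidence. In wild-type liver 1 of the 10 genes was called, Junb, lower by 0.85 on the log2 scale (-0.85 ± 0.23, adjusted p = 0.0395), where 2.71% of all genes were called lower and 3.25% higher. That call was lost without any 1 of wild-type mice 1, 2 or 3 on normal diet or of the 5 mice on Western diet (adjusted p 0.0515 to 0.12), and the second Junb probe gave -0.42 ± 0.35. It was also lost in 10 of 14 other settings, and the difference was -0.45 (adjusted p = 0.497) with outlier spots kept. Egr1 differed by -1.36 ± 0.59 (adjusted p = 0.206) and Myc by 0.97 ± 0.6 (adjusted p = 0.399). Fosl2 differed by 0 ± 0.21 (95% interval -0.45 to 0.45) and Fos by -0.13 ± 0.55 (95% interval -1.28 to 1.02).

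In knockout liver 7 of the 9 genes other than Fosl1 were higher on Western diet, 8 of 10 with it, where 22.6% of all genes were called higher and 27.8% lower. The median difference was 1.38 over the 9 against -0.119 over all genes. In 5 of the 9 the 2 diet groups did not overlap, against 16.3% of all genes. Ier3 was higher by 3.89 ± 0.41 (14.8-fold, adjusted p = 4.25e-07), Fos by 2.74 ± 0.55 (6.68-fold, adjusted p = 0.000409) and Egr1 by 2.01 ± 0.59 (4.04-fold, adjusted p = 0.00828). Fosl2 was higher by 1.64 ± 0.21 (adjusted p = 4.56e-06), Fosb by 1.38 ± 0.39 (adjusted p = 0.00638) and Jun by 1.1 ± 0.35 (adjusted p = 0.0146). Fosl1 was 1.48-fold higher with dim signals raised to the same kind of floor, with the limits given above. Jund was higher by 0.61 ± 0.23 (adjusted p = 0.0363), on 2 mice of the normal diet group, and this call was lost without knockout mouse 1 or 5 on normal diet or mouse 1, 2 or 3 on Western diet (adjusted p 0.0561 to 0.121), and under median scaling (0.53, adjusted p = 0.209) or with no filter (0.61, adjusted p = 0.0569). Junb differed by 0.18 ± 0.22 (95% interval -0.28 to 0.65). Myc differed by 1.29 ± 0.6 (adjusted p = 0.0828), and by 1.91 (adjusted p = 0.00308) without knockout mouse 3 on normal diet. With normexp 5 of the 10 were called, with Fos at 1.29 (adjusted p = 0.0138): Fosb gave 0.04, Fosl2 0.57, Jund 0.55 and Fosl1 -0.36, none of them called, while Myc was called at 1.07.

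**Figure D3:**
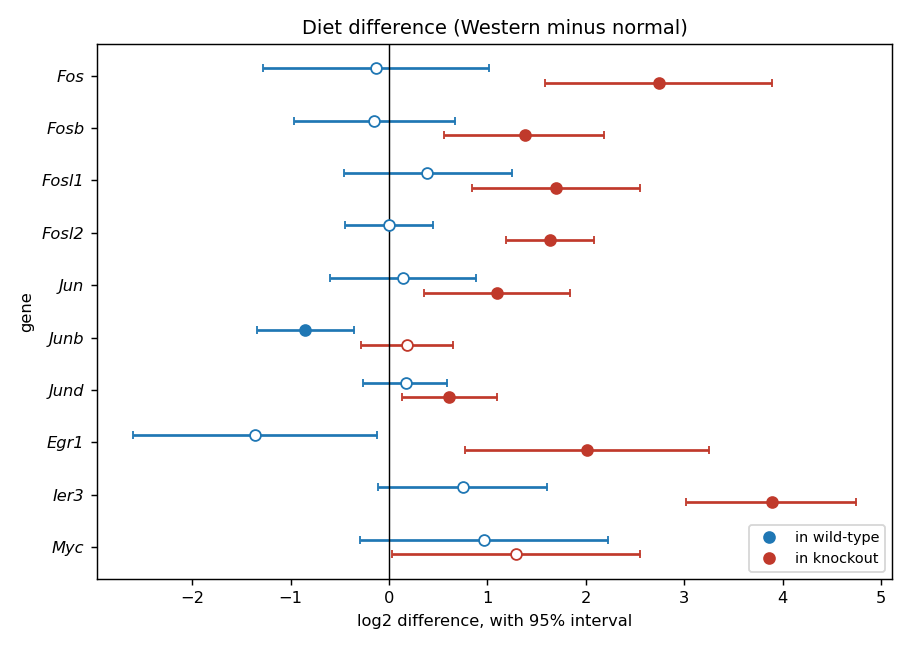
Log2 difference between Western and normal diet for each gene within wild-type and within knockout liver, with 95% intervals from the limma fit; a filled point has an adjusted p under 0.05. In knockout liver 8 points are filled, and in wild-type liver only Junb is, below 0.

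Whether the diet difference itself differed by genotype was tested as an interaction. It was higher in knockout liver for 6 of the 10 genes, where 12.9% of all genes were called in that direction and 14.7% in the other, with a median of 1.53 over the 9 genes against -0.078 over all genes. The 6 were Egr1 (3.37 ± 0.84, adjusted p = 0.00564), Ier3 (3.14 ± 0.58, adjusted p = 0.000616), Fos (2.87 ± 0.78, adjusted p = 0.00991), Fosl2 (1.64 ± 0.3, adjusted p = 0.000574), Fosb (1.53 ± 0.55, adjusted p = 0.0458) and Junb (1.03 ± 0.32, adjusted p = 0.0234). The Fosl2 term was 0.79 (adjusted p = 0.109) with the mean of all probes, and the second Fosl2 probe gave -0.05 ± 0.57. The Junb call was lost with outlier spots kept (0.64, adjusted p = 0.367), the authors' deposited values (0.96, adjusted p = 0.134), median scaling (0.91, adjusted p = 0.0994) and the mean of all probes (1.01, adjusted p = 0.0558), and the second Junb probe gave 1.11 ± 0.49 (adjusted p = 0.104). The Fosb term passed without 6 of the 20 mice taken out in turn and not without the other 14. The term was 0.32 ± 0.85 for Myc (95% interval -1.46 to 2.1), and 0.44 ± 0.3 for Jund, which the authors' deposited values put at 0.96 (adjusted p = 0.00201). For Jun it was 0.96 ± 0.5 (adjusted p = 0.17), and 1.25 (adjusted p = 0.046) without wild-type mouse 2 on Western diet. With normexp only the Egr1 term was called.

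That wild-type mouse on Western diet was the highest of its group for Fos, Fosl2, Jun, Egr1 and Myc, and for Fosl1, which was not well above background there. It was not the highest for Fosb, Junb or Ier3, and it had no Jund value. How often it was the highest over all genes was not counted. To see which genes varied together between mice of 1 group, deviations from the group mean were correlated over the 20 livers for the 7 genes with a value on every array and well above background on most. The livers share slides and dissection, and 21 pairs were compared. Jun and Egr1 had r = 0.75 (permutation p = 0.00185, adjusted p = 0.0388) and a rho of 0.54 (adjusted p = 0.129). Fos and Egr1 had r = 0.69 (permutation p = 0.00472, adjusted p = 0.0496) and a rho of 0.66 (adjusted p = 0.0682). Without the 2 livers farthest from the median, r was 0.61 and 0.75. Fosl2 and Ier3 followed with r = 0.62 (permutation p = 0.00779, adjusted p = 0.0545). Myc varied apart from Fos (r = 0.08) and Egr1 (r = 0.01). Over all 21 pairs r ran from -0.16 to 0.75 with a median of 0.24, and no pair passed by rho.

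**Figure D4:**
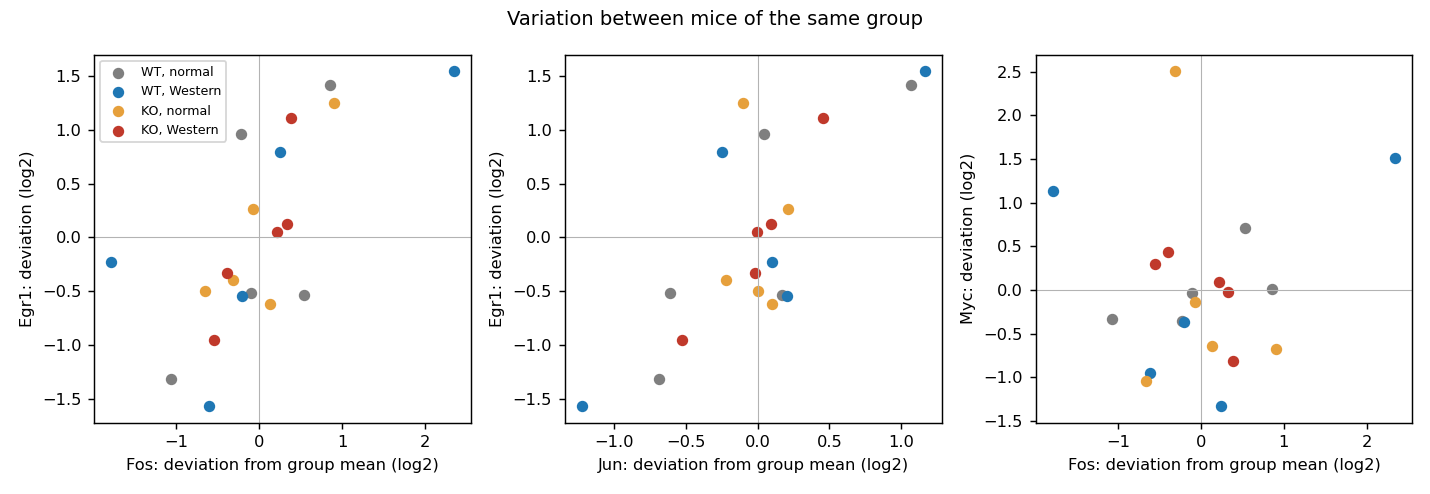
Deviation of each liver from its group mean in log2 units, for Fos and Egr1, Jun and Egr1, and Fos and Myc; each point is 1 of 20 livers, coloured by group. Points follow a rising line in the first 2 panels (r = 0.69 and 0.75) and not in the third (r = 0.08).

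Among the 16998 genes searched, those whose deviations were most like the ones of Jun were Atf3 (r = 0.77), Nrip1 (0.76) and Gdf15 (0.73). For Ier3 they were Fstl1 (r = 0.87), Nfkbie (0.86) and Apaf1 (0.85), for Fos Rpa2 (0.88) and Cbfa2t2 (0.8), and for Egr1 P2ry10 and Rec114 (0.74 each). For Fosl2 they were Rbm6, Inppl1 and Mef2d (0.84 each). P2ry10 was well above background on 10 of 20 arrays. Without the 2 livers farthest from the member's median, r ran from 0.56 (Gdf15) to 0.86 (Inppl1), with Rpa2 at 0.68 and Atf3 at 0.58. These are the highest of many correlations and are given as a description.

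Of the other bZIP genes that can join AP-1, 12 were tested. On normal diet 7 were higher in knockout liver and none lower (median 0.85), against 11.3% and 8.39% of all genes. On Western diet 7 were higher and 2 lower (median 1.1), against 25% and 32.7% of all genes. With normexp 1 was higher on normal diet. Atf3, a stress-induced repressor and activator, was higher by 1.91 ± 0.47 on normal diet (adjusted p = 0.00733) and by 4.52 ± 0.47 on Western diet (adjusted p = 2.08e-07). Its mean was -2.85 ± 0.87 (SD, n = 5) in wild-type liver on normal diet, -1.75 ± 1.08 on Western diet, -0.94 ± 0.62 in knockout liver on normal diet and 2.77 ± 0.37 on Western diet. Batf, an AP-1 factor of immune cells, was higher by 2.84 ± 0.4 and 2.99 ± 0.4 on the 2 diets (adjusted p = 6.38e-05 and 4.4e-06). Jdp2, which represses AP-1 sites, was higher by 2.56 ± 0.26 on Western diet (adjusted p = 1.59e-07) and Maff, a small Maf protein, by 2.26 ± 0.37 (adjusted p = 4.7e-05).

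Of the other immediate early genes 27 were tested. On Western diet 18 were higher in knockout liver and 2 lower (median 1.31), against 25% and 32.7% of all genes. On normal diet 10 were higher and 1 lower (median 0.56), against 11.3% and 8.39% of all genes. With normexp 3 were higher on normal diet. Without the 2 that passed the filter only through knockout liver on Western diet, 17 of 25 were higher on that diet. Egr2, the nearest relative of Egr1 in the list, was higher by 5.7 ± 0.36 on Western diet (adjusted p = 6.12e-10) and by 1.56 ± 0.36 on normal diet (adjusted p = 0.00487). Klf6 was higher by 3.58 ± 0.29 (adjusted p = 1.28e-08), the growth arrest gene Gadd45b by 3.02 ± 0.46 (adjusted p = 2.14e-05) and Klf4 by 2.95 ± 0.28 (adjusted p = 5.93e-08). Nr4a1, an orphan nuclear receptor, was higher by 2.17 ± 0.49 on normal diet (adjusted p = 0.00392) and by 2.2 ± 0.49 on Western diet (adjusted p = 0.000814), and its interaction term was 0.03 ± 0.69. Ier2, usually induced beside Fos, gave -0.09 ± 0.21 and 0.13 ± 0.21, neither called. Its mean level was 3.16 ± 0.34 (SD, n = 5) in wild-type and 3.28 ± 0.15 in knockout liver on Western diet. In knockout liver 15 of the 27 were higher and 2 lower on Western diet, against 22.6% and 27.8% of all genes. Without the 2 that passed the filter only through knockout liver on Western diet, 14 of 25 were higher. In wild-type liver 1 was higher on Western diet, Plk2 (0.92 ± 0.25, adjusted p = 0.0365), against 3.25% of all genes.

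Of the genes that shut the response off 16 were tested. On normal diet 1 was higher in knockout liver, against 11.3% of all genes. On Western diet 8 were higher and 2 lower in knockout liver (median 0.56), against 25% and 32.7% of all genes. None was called lower with normexp or quantile normalization. Dusp2, a nuclear MAP kinase phosphatase of immune cells, was higher by 3.89 ± 0.44 on normal and 3.57 ± 0.44 on Western diet (adjusted p = 6.22e-06 and 1.59e-06). Dusp4 was higher by 2.11 ± 0.46 on Western diet (adjusted p = 0.000647) and Dusp10 by 1.7 ± 0.26 (adjusted p = 2.04e-05). Dusp1, the immediate early MAP kinase phosphatase, was lower there (-0.92 ± 0.35, adjusted p = 0.0295). Zfp36, which speeds the decay of short-lived RNAs, gave 0.01 ± 0.26 between genotypes on Western diet, and within knockout liver it was lower on Western diet (-1 ± 0.26, adjusted p = 0.00355).

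Among receptors, kinases and SRF factors upstream, 6 of 22 were higher and 10 lower in knockout liver on Western diet (median -0.27), against 25% and 32.7% of all genes. With normexp 2 were lower. The higher ones included the ETS factor Elk3 (1.46 ± 0.23, adjusted p = 3.19e-05), the kinase gene Mapk3 (1.18 ± 0.12, adjusted p = 2.27e-07) and the SRF coactivator gene Mrtfa (1.05 ± 0.14, adjusted p = 3.72e-06). The lowest was Egfr, the receptor for epidermal growth factor (-1.77 ± 0.3, adjusted p = 6.52e-05). These are RNA levels of proteins whose activity is set by phosphorylation, which the arrays do not measure.

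Of 15 textbook targets of AP-1 tested, 5 passed the filter only through knockout liver on Western diet and had to differ there. The other 10 were each higher in knockout liver on Western diet (median 3.48), against 25% of all genes. They were also each higher on Western diet within knockout liver (median 3.07), against 22.6% of all genes. With normexp 9 of the 15 were called higher between genotypes on that diet. The 8 targets well above background on every array were each called when only such probes were tested. On normal diet 6 of the 15 were higher in knockout liver, against 11.3% of all genes, and 1 with normexp. Without the 5 that passed the filter only through knockout liver on Western diet, 5 of 10 were higher on normal diet. In wild-type liver on Western diet 2 were higher, Spp1 (1.69 ± 0.38, adjusted p = 0.0119) and Ccnd1 (1.42 ± 0.36, adjusted p = 0.0225), against 3.25% of all genes. Plaur, the urokinase receptor, was higher by 5.35 ± 0.25 (adjusted p = 1.76e-11) and Ccl2, a monocyte chemokine, by 5.65 ± 0.62 (adjusted p = 3.82e-07) between genotypes on Western diet. The metalloproteinase gene Mmp3 was not well above background in wild-type liver on that diet. It was 11.6-fold higher with dim signals raised to a floor as for Fosl1. Most of these genes are also known from macrophages or matrix-producing cells, and Spp1 is in the bile duct list as well.

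The shares called among Myc's partners and targets are read against those of all genes (25% higher and 32.7% lower). On Western diet 3 of 11 partners were higher and 4 lower in knockout liver (median -0.22). The higher ones were Mycl (1.12 ± 0.27, adjusted p = 0.00165), Mnt (0.89 ± 0.23, adjusted p = 0.00294) and Max, its obligate partner (0.59 ± 0.2, adjusted p = 0.015). The lower ones included Mxd4 (-0.71 ± 0.15, adjusted p = 0.000386) and the antagonist Mxi1 (-0.69 ± 0.17, adjusted p = 0.00182). Of 18 growth and ribosome targets 4 were higher and 4 lower (median -0.02), and 8 and 2 under quantile normalization. Ccnd2 was the largest, at 1.22 ± 0.25 (adjusted p = 0.000342), and Ncl, which encodes nucleolin, gave 0.05 ± 0.11.

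**Figure D5:**
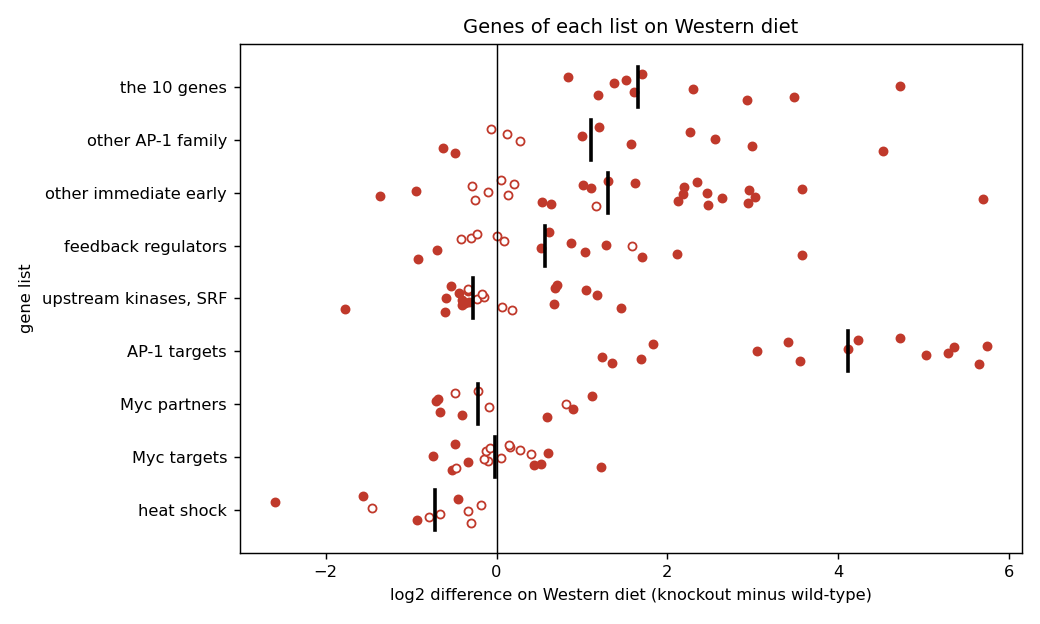
Log2 difference between knockout and wild-type liver on Western diet for each gene of 9 lists; filled points have an adjusted p under 0.05 in the limma fit and the bar is the list's median. The median is 1.66 for the 10 genes, 4.11 for AP-1 targets (3.48 without the 5 that passed the filter only through the knockout group) and -0.02 for Myc targets.

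Markers of other cell types moved with the same groups. Their counts stand against 25% of all genes called higher and 32.7% lower in knockout liver on Western diet. Of 12 macrophage markers 9 were higher and 1 lower in knockout liver on Western diet, and the summed level of 11 of them (relative to the 75th percentile of each array) was 243 to 313 there, against 15.9 to 98 over all other arrays. Gpnmb and Itgam were not well above background on most wild-type arrays, and the resident Kupffer cell marker Clec4f was lower (-8.1 ± 0.84, adjusted p = 2.05e-07). Stellate cell markers were higher for 7 of 10 and none lower (sum 86.4 to 177, against 13.2 to 30.2). Bile duct markers were higher for 6 of 7 (sum 148 to 208, against 13.2 to 147). That sum is of linear levels and is mostly Spp1, whose log2 mean was 7.35 in knockout liver on Western diet. Krt7 and Krt19 had means of 1.25 and 0.74 in the same group. Cldn4, which passed the filter only through knockout liver on Western diet, was not well above background on 14 of 15 other arrays. Neutrophil markers were higher for 6 of 7, of which 3 passed the filter only through that group (sum 11.8 to 51.2, against 0.967 to 10.5), with Elane not well above background on 19 of 20 arrays. Of 9 hepatocyte markers 6 were lower and none higher, against 32.7% of all genes lower, and 1 was lower with normexp and 2 under quantile normalization or with the authors' deposited values (sum 746 to 838, against 937 to 1770). Lymphocyte markers were higher for 1 and lower for 2 of 9, endothelial markers for 2 and 1 of 9 (sums 0.9 to 1.45 and 7.25 to 19.3 in knockout liver on Western diet, against 0.577 to 2.47 and 9.04 to 22.5). The part of these cell types in the differences of the 10 genes was not tested.

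Genes that respond to handling, heat or time of day were read as well. Of 10 heat shock genes none was higher and 4 were lower in knockout liver on Western diet, among them Hspb1 (-2.59 ± 0.4, adjusted p = 2.32e-05). Of 15 clock genes 4 were higher and 4 lower on Western diet and 6 higher and 3 lower on normal diet. Without the 1 that passed the filter only through knockout liver on Western diet, 3 of 14 were higher and 4 lower on that diet. Among all genes 25% were called higher and 32.7% lower on Western diet, and 11.3% and 8.39% on normal diet. Per1, which is also an immediate early gene, was higher by 2.06 ± 0.36 on normal diet (adjusted p = 0.000466) and by 1.57 ± 0.36 on Western diet (adjusted p = 0.00103), and Arntl was lower by 2.36 and 1.91 on the log2 scale (-2.36 ± 0.75 and -1.91 ± 0.75, adjusted p = 0.0336 and 0.0376). The hour of dissection is not in the labels, and the part of either list in the results was not tested.

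Arrays were spread over 6 slides, and 4 slides held both genotypes on Western diet. Within slides the genotype difference on that diet was positive on all 4 for Fos, Fosb, Fosl2, Jun, Junb, Egr1 and Ier3. It was positive on both slides with values for Jund. Fosl1 was also positive on all 4, with the limit that it passed the filter only through knockout liver on Western diet. For Myc the difference was positive on 3 of 4, from -0.24 to 3.47. These are the mice of the main comparison, so the values are no separate evidence. The share of all genes with such signs was not counted. The within-slide differences ran from 1.35 to 5.65 for Fos, from 1.44 to 4.27 for Egr1, from 1.77 to 2.28 for Fosl2 and from 3.45 to 5.51 for Ier3.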

How the data were processed

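Total RNA of each liver was labelled with Cy3 and hybridised to its own array. Per the file headers, the deposited scanner files hold linear signal intensity per spot from Feature Extraction 9.5.3.1 with probe positions on mm8; the submitters' processing notes also name limma. The value table deposited by the authors holds log2 values (base inferred); column medians were 7.734 to 7.783, each column matched its own array best (r 0.974 to 0.982), and centring and method are not given in the sources used here. It served as an alternative.

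Processed signals were taken as log2 minus the array's 75th percentile, leaving out control spots and 105 to 270 outlier spots per array. Spots of a probe were averaged, and the probe with the highest mean stood for a gene. The filter on dim probes kept a gene when 4 or more of the 5 arrays of any group marked its probe as well above background. Names came from RefSeq transcripts (23374 probes), symbols (6733), synonyms (2919) or the file (8148 of 41174). limma 3.58.1 (R 4.3.3) fitted 4 group means over 20 arrays, with Benjamini-Hochberg adjustment over all genes. The procedure was tested on simulated data.

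The members and lists were chosen with earlier results of these data known. All members were named; from every other list, up to 4 called genes with the largest difference per comparison, and Atf3, Ier2, Nr4a1, Dusp1 and Zfp36 always. Other genes, such as Ncl, were named after their values were seen. A few genes that this rule selects are not reported here. Genes most like a member were the 3 with the highest r of deviations. Deviations were permuted 100000 times within groups. Replicate numbers were not taken as pairs: in each of the 6 pairs of groups, only 0 to 4 of 5 same-numbered pairs correlated over 0.1 (4 for the wild-type groups, mean 0.296, and 3 for the knockout groups, whose same numbers share slides). The number of arrays limits the precision.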

Additional observations from a re-analysis of the deposited data

Results flagged for a closer look

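Of 38 sets of 4 or 5 livers of 1 group and gene, 2 held a value far from the others, where chance alone gives about 1 in 20. Fosb in knockout mouse 1 on Western diet was -3.28, with the other 4 between -2.26 and -2.22. Myc in knockout mouse 3 on normal diet was 2.41, with the other 4 between -1.13 and -0.23.

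The Western diet difference, taken with its sign, was higher in knockout than in wild-type liver for Egr1, Ier3, Fos, Fosl2, Fosb and Junb. The limma interaction terms were 3.37, 3.14, 2.87, 1.64, 1.53 and 1.03 in that order. Between diets Junb differed by -0.85 in wild-type and 0.18 in knockout liver, and Egr1 by -1.36 and 2.01.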

How the results depend on the processing

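Between genotypes on Western diet the number of the 10 genes called higher stayed at 9 or 10, except that it was 7 with normexp background correction and 7 where a probe had to be well above background on all arrays, a filter that left 7 of the genes to test. It ran from 9 to 10 with 1 array left out. On normal diet the 2 calls became 1 under median scaling, quantile normalization, no filter, the filter on all arrays, the mean of all probes of a gene and a fit of only the groups compared, and 0 with normexp and with the authors' deposited values, with a range of 1 to 3 with 1 array left out. Where 1 call was left it was that of Ier3, except under the filter on all arrays, where Ier3 was not tested. In wild-type liver the 1 gene lower on Western diet became 0 under median scaling, quantile normalization, normexp, the deposited values, no filter, outlier spots kept, the mean of all probes, the replicate block and a fit of only the groups compared, with a range of 0 to 1. In knockout liver the 8 genes higher on Western diet became 5 with normexp and with the filter on all arrays, with a range of 7 to 9. The 6 interaction calls became 1 with normexp, were 4 to 6 under the other planned settings and ranged from 5 to 7 with 1 array left out. A normexp fit without outlier spots, chosen after seeing the data, gave 7, 0, 0, 5 and 2 for these 5 counts. The 2 correlated pairs became 7 with normexp and 3 with slide means removed, but these were not all the same pairs. Jun and Egr1 passed by r in both and with quantile normalization. Fos and Egr1 had r = 0.43 with normexp (adjusted permutation p = 0.137) and 0.65 with quantile normalization (adjusted permutation p = 0.0624). The other pairs called with normexp were among Fos, Fosb, Fosl2 and Ier3. Values changed sign as follows. With normexp Fosl1 gave -0.27 between genotypes and -0.36 between diets in knockout liver and -0.38 for the interaction, and without outlier spots -0.29, -0.38 and -0.43. Fosb between diets in wild-type liver gave 0.02 and 0.03 in these fits and 0.04 with the slide as a block, and 0.01 between genotypes on normal diet in the second. With the deposited values Fosl1 gave -0.03 between genotypes on normal diet, and between diets in wild-type liver Fos gave 0.11 and Fosl1 -0.01. With 1 array left out, the diet difference in wild-type liver ran from -0.71 to 0.32 for Fos, from -0.34 to 0.08 for Fosb and from -0.15 to 0.45 for Jun, and the Myc interaction from -0.01 to 0.94. Replicate numbers were not taken as pairs; with the replicate block Junb in wild-type liver gave -0.81 (adjusted p = 0.0672) and the Fosb interaction 1.53 (adjusted p = 0.0502), and no other call of the 10 genes was lost. Over all genes, normexp called 307 higher and 202 lower between genotypes on normal diet, 1971 and 2331 on Western diet, 64 and 82 between diets in wild-type liver, 1803 and 1768 in knockout liver, and 636 and 378 for the interaction. The cause of the changes with normexp was not tested. Fosl1 lies below background in 3 groups, Ier3 is dim in wild-type liver, and Jund lacks 5 arrays and Junb 1, which limits their precision.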
